A study of Mus musculus with 30 samples.

Results

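The genes described here are 38 genes that carry cells from G1 into S phase and copy the genome, chosen by symbol from the 55335 genes of a liver RNA-seq count table. They were grouped by role into 10 genes of origin licensing, 4 of origin firing, 8 of DNA synthesis, 4 of nucleotide supply, 5 of chromatin assembly and histone supply, and 7 regulators of the G1/S transition. All 38 symbols matched a row of the table. After the filter on low counts, 36 of them were tested in each comparison of 2 groups, and Cdc6 and Orc1, the loading factors at or near the detection limit, were not.

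The study asked whether the triterpenoid CDDO-Me changes liver gene expression through the C151 cysteine of KEAP1, the sensor protein that holds the transcription factor NRF2 in check, and through NRF2 itself. Male mice of 7 to 10 weeks on an albino C57BL/6J background were wild-type, carried a homozygous Keap1 C151S knock-in that replaces this cysteine by serine, or were homozygous Nrf2 knockouts. Each mouse received 1 oral dose of CDDO-Me at 30 µmol/kg or the vehicle alone (10% DMSO and 10% Cremophor-EL in PBS), and the liver was taken 24 hours later. Each of the 6 groups held 5 mice, so there were 30 libraries, with 23667070 to 42073170 counts on genes. Wild-type mice were bought and both mutant lines were bred in a laboratory as homozygotes, so genotype and source of the mice cannot be told apart.

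Replication starts with licensing in G1, when ORC, CDC6 and CDT1 load the MCM2-7 helicase onto origins. At the G1/S boundary, cyclin D and cyclin E kinases release E2F transcription factors, whose targets include most of the licensing, synthesis and nucleotide genes, and CDC45 and the GINS complex turn the loaded helicase into an active one. Adult hepatocytes rest outside the cell cycle and seldom replicate, and the few cycling cells of a healthy liver can be hepatocytes or other resident cells. In bulk liver RNA, fewer cycling cells and less RNA per cycling cell cannot be told apart.

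The knockout label was checked on Nfe2l2, the gene of NRF2. Its level was 65.7 ± 3.64 CPM (counts scaled to library size, mean ± SD, n = 5) in vehicle-treated wild-type mice and 35.2 ± 4.76 CPM in vehicle-treated Nrf2-knockout mice, and no knockout mouse reached the lowest wild-type mouse of either treatment. The hepatocyte markers Alb, Apoa1, Cps1, Serpina1c and Ttr were abundant in all 30 libraries and together made up 64375 to 148318 CPM. Known NRF2 targets responded in wild-type mice, where 5 of 7 reference genes rose, among them Cbr3 (log2 fold change 5.24, SE 0.31, adjusted p = 3.63e-06). None of the 7 was called in C151S or Nrf2-knockout mice.

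Before the results, libraries that stood apart are described. Nrf2-knockout CDDO-Me mouse 3 was the highest of its group for 35 of the 38 genes and the highest of all 30 libraries for 25. Its mean log2 CPM over the genes was 3.15, whereas the other 29 libraries ranged from 1.43 to 2.38. The libraries also fell on either side of a gap in Arntl, the clock gene that encodes BMAL1 and cycles over the day in liver, with 11 libraries at 0.384 to 1.80 CPM and 19 at 5.72 to 27.9 CPM. All 10 wild-type libraries lay on the high side, whereas 5 C151S and 6 Nrf2-knockout libraries lay on the low side, so comparisons of a mutant with wild-type also differ in Arntl, and they were refitted with the side of Arntl as a term (given after the genotype results).

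**Figure D1:**
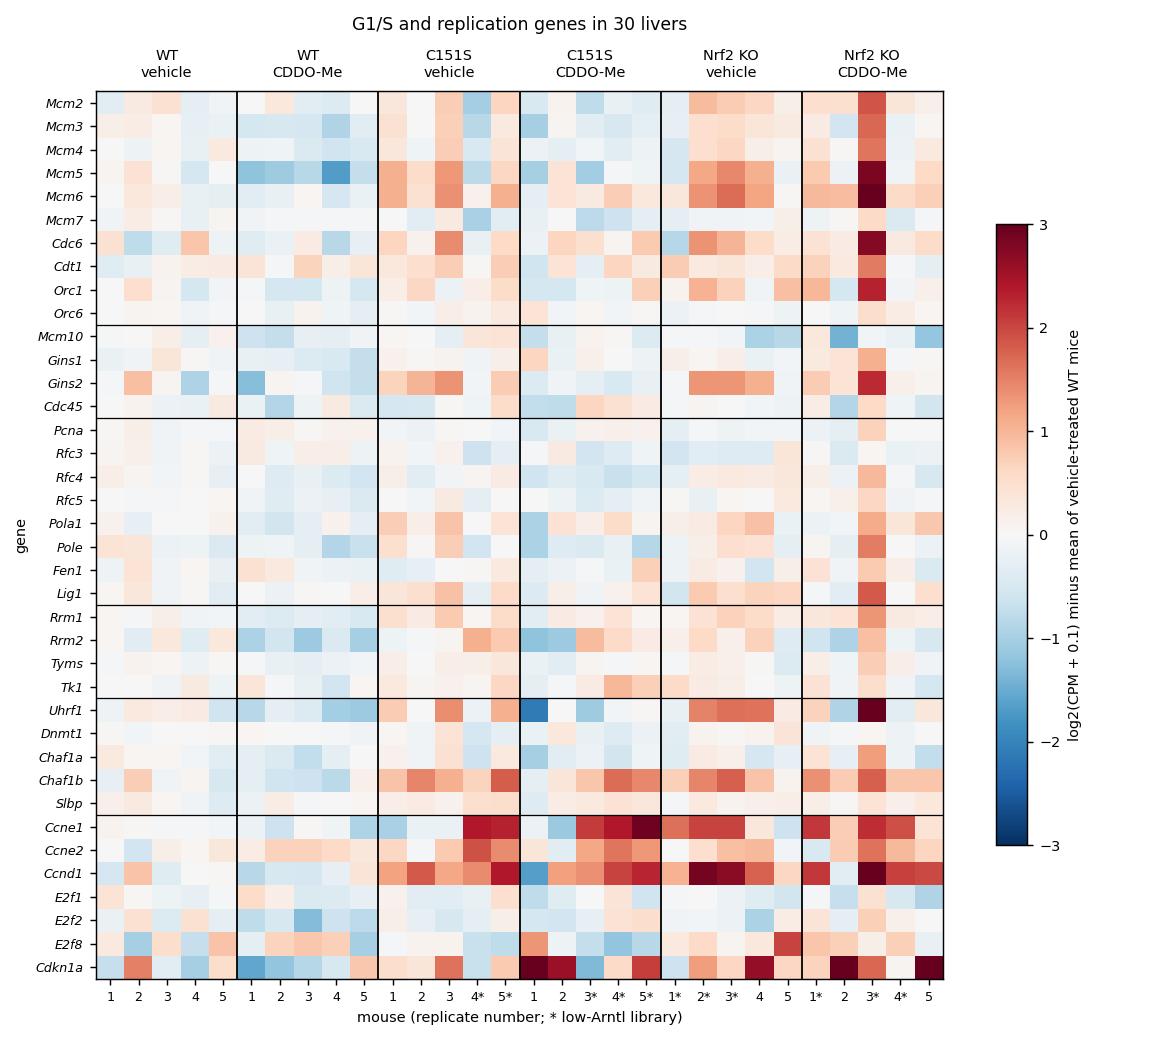
Heat map of the 38 genes (rows, in blocks by role) in 30 livers (columns, in blocks by group), coloured by log2(CPM + 0.1) minus the mean of the 5 vehicle-treated wild-type mice, with colours limited at 3 in either direction and an asterisk at libraries with low Arntl. The wild-type CDDO-Me block is pale to blue in most rows, and mouse 3 of the Nrf2-knockout CDDO-Me group is red in most rows.

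Levels in resting liver were low. Scaled to exon length, Mcm10 had the highest level in vehicle-treated wild-type mice at 11.6 CPM per kb (range 9.61 to 13.2), followed by Pcna, the sliding clamp of DNA polymerases, at 8.43, by Tk1, the thymidine kinase, at 5.38, by Ccnd1, which encodes cyclin D1, at 3.63 (range 2.42 to 6.18) and by Mcm7 at 3.10. The ranges of Mcm10 and Pcna did not overlap, and those of Ccnd1 and Mcm7 did. The other subunits of the MCM2-7 helicase, which assemble in equal number, ranged from 0.518 CPM per kb for Mcm2 to 1.30 for Mcm3. Orc1 was lowest at 0.0135, with no read in 1 of the 5 mice, and Cdc6 was next at 0.0284. A count of 0 allows up to 3 counts, which is 0.065 to 0.129 CPM depending on the library.

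**Figure D2:**
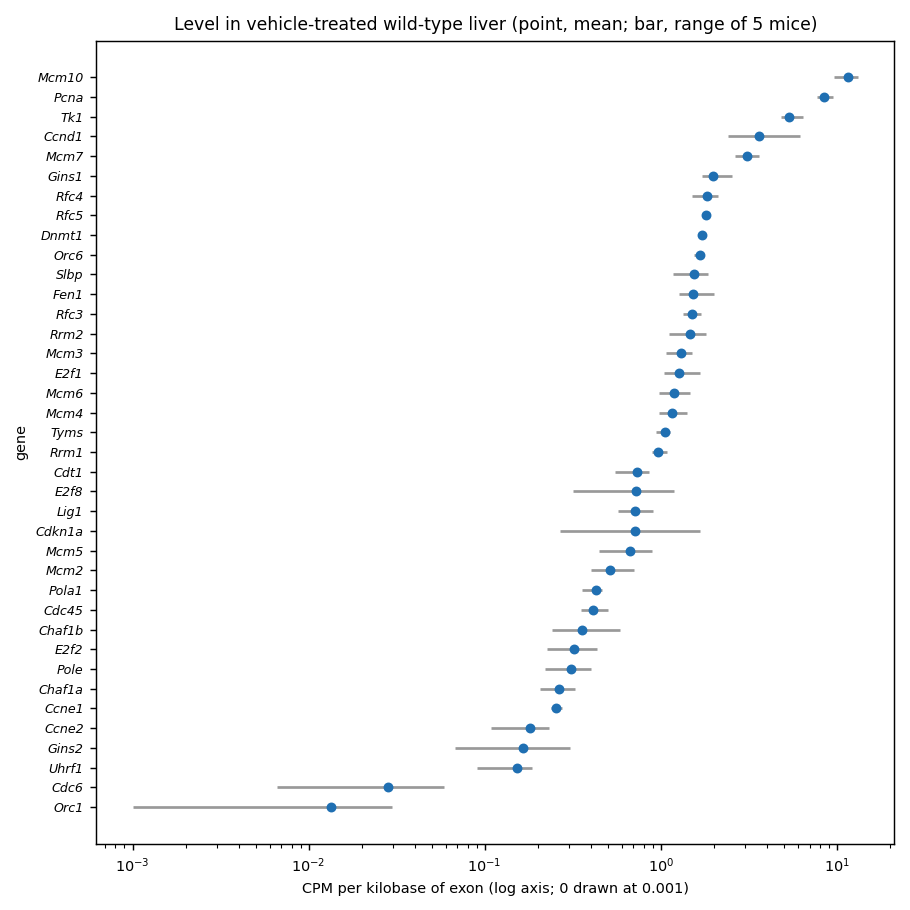
Level of each gene in vehicle-treated wild-type liver, as CPM per kilobase of exon on a log axis (points, means; bars, ranges over 5 mice; a level of 0 is drawn at 0.001). Mcm10 at 11.6 and Pcna at 8.43 lead, and Cdc6 and Orc1 lie far below the rest.

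The effect of CDDO-Me in wild-type mice was examined first. Mcm5, Rrm2 and Mcm3 fell in CDDO-Me-treated wild-type liver, and none of the 36 tested genes rose. A gene was called at a false discovery rate below 0.05 when its log2 fold change was 0.5 or more in size. This called 3 of the 36 tested genes (8.33%), against 2.75% of all 13697 genes tested and 1.10% in the downward direction. Below 0 lay 29 of the 36 log2 fold changes with a median of -0.27, compared with 51.5% and a median of -0.01 over all genes. At an unadjusted p below 0.05 there were 11 lower and 1 higher, that is 12 of 36, against 17.0% of all genes. In a single fit of all 30 libraries, which share 1 estimate of the spread, all 3 calls were lost (adjusted p = 0.43 for Mcm5, 0.443 for Rrm2 and 0.591 for Mcm3). The number called over all genes went from 377 to 147 in that fit.

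Mcm5 (ENSMUSG00000005410.6, mm10 chromosome 8, 75109569 to 75128439, plus strand) encodes a subunit of the MCM2-7 helicase. It was at 2.76, 3.56, 2.69, 1.79 and 2.60 CPM in the 5 vehicle-treated mice and at 1.09, 1.19, 1.43, 0.753 and 1.57 CPM in the 5 CDDO-Me-treated mice. Every treated mouse was below every vehicle-treated mouse, and Mcm5 was 2.23-fold lower (log2 fold change -1.16, SE 0.22, adjusted p = 0.0114). The call held when any single library was left out (log2 -1.27 to -1.02, largest adjusted p = 0.0316).

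Rrm2 (ENSMUSG00000020649.11, mm10 chromosome 12, 24708241 to 24714146, plus strand) encodes the small subunit of ribonucleotide reductase, which makes deoxynucleotides and is normally confined to S phase. Vehicle-treated mice had 4.18, 3.15, 5.03, 3.08 and 4.96 CPM, whereas CDDO-Me-treated mice had 2.02, 2.69, 1.81, 2.95 and 1.97 CPM. The groups did not overlap, and Rrm2 was 1.79-fold lower (log2 fold change -0.84, SE 0.19, adjusted p = 0.0281). The call was lost without vehicle mouse 1, 3 or 5 or CDDO-Me mouse 1, 3 or 5, with log2 fold changes of -0.95 to -0.75 and a largest adjusted p of 0.0874 over the 10 omissions. The call of Rrm2 was also lost with mouse number as a replicate block in the fit.

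Mcm3 (ENSMUSG00000041859.10, mm10 chromosome 1, 20802968 to 20820312, minus strand), another helicase subunit, was at 5.43, 5.63, 5.03, 4.04 and 4.22 CPM in vehicle-treated mice. In CDDO-Me-treated mice it was at 3.30, 3.42, 3.38, 2.55 and 3.78 CPM, again below every vehicle-treated mouse. Mcm3 was 1.49-fold lower (log2 fold change -0.58, SE 0.14, adjusted p = 0.0373). Leaving out vehicle mouse 1, 2 or 3 or CDDO-Me mouse 1, 2, 3 or 4 removed the call (log2 -0.64 to -0.49, largest adjusted p = 0.097). Mouse number as a replicate block removed it too.

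By role, 2 of the 8 tested licensing genes fell and 7 of the 8 estimates were below 0. The rest of the helicase did not pass, with log2 fold changes of -0.37 for Mcm4, -0.25 for Mcm6, -0.11 for Mcm2 and -0.08 for Mcm7, and Cdt1, the loading factor, stood at 0.31 (adjusted p = 0.41). Among nucleotide genes, Rrm1, the large subunit of ribonucleotide reductase, passed the false discovery rate but changed by less than the fold threshold (log2 fold change -0.37, SE 0.08, adjusted p = 0.0249). Rrm1 was at 9.81 to 12 CPM with vehicle and at 7.71 to 8.77 CPM with CDDO-Me, so its groups did not overlap either. Tyms, the thymidylate synthase, and Tk1 had log2 fold changes of -0.17 and -0.07.

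None of the other 24 tested genes passed. All 4 firing genes were below 0, with Mcm10, which helps to activate the helicase, estimated at -0.40 (log2, SE 0.12, adjusted p = 0.084) and Gins1 at -0.44 (adjusted p = 0.135). Of the 8 synthesis genes, 5 were below 0, the most significant being the clamp loader subunit Rfc5 (log2 fold change -0.27, SE 0.09, adjusted p = 0.102), whereas Pcna was at 0.13 (adjusted p = 0.399). Uhrf1, which guides DNA methylation to newly copied DNA, had the largest estimate of the 5 chromatin genes (log2 fold change -0.90, SE 0.28, adjusted p = 0.102). Among the 7 regulators, E2f2, a transcriptional activator of S phase genes, had the smallest p (log2 fold change -0.88, SE 0.25, adjusted p = 0.0667). DESeq2 called E2f2 (-0.88, adjusted p = 0.0214), as did edgeR with mouse number as a replicate block (-0.87, adjusted p = 0.0468). Ccne2, which encodes cyclin E2, lay above 0 at 0.53 (adjusted p = 0.236).

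Some promoters are shown because E2F proteins bind motifs near the start sites of replication genes. Of the promoters with such a motif, those of the 4 genes with the smallest adjusted p in the treatment comparison of any genotype are printed. RefSeq promoter sequences on GRCm38.p6, from 250 bases before to 50 bases after each start, matched 32 of the 38 genes with 41 promoters, and Mcm4, Gins1, Gins2, Ccne2, Ccnd1 and Pole had no entry. RefSeq starts can differ from the GENCODE gene starts given elsewhere in the text, and those of Mcm5, E2f2 and Mcm6 lie upstream of them. Printed 5′ to 3′ on the gene's strand are the 250 bases before the start of Mcm5 (chr8:75109259-75109508, plus strand), 30 bases that hold both motifs of Mcm3 just after its start (chr1:20820265-20820294, minus strand), 30 bases after the start of E2f2 (chr4:136172294-136172323, plus strand) and the 250 bases before the start of Mcm6 (chr1:128359706-128359955, minus strand). Capitals mark the E2F motifs TTTCCCGC and TTTGGCGC or their reverse complements.
Mcm5: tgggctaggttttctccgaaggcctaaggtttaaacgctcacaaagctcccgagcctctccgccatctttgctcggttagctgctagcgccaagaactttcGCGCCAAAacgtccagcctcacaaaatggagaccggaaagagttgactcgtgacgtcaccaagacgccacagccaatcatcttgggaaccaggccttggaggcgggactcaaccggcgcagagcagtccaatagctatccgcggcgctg
Mcm3: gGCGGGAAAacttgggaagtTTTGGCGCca
E2f2: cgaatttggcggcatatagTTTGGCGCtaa
Mcm6: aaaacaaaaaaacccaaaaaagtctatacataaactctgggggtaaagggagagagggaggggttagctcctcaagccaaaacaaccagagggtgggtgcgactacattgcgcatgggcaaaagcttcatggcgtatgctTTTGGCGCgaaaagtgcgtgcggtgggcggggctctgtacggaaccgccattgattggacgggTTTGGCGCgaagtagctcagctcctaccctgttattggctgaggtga

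Counted on both strands, one or the other E2F motif was present in 10 of the 41 promoters (24.4%) and in 514 of all 32851 promoters of the same length (1.56%). The 10 belong to Mcm3, Mcm5, Mcm6, Mcm7, Cdc6, Cdt1, E2f2, Dnmt1, Rfc3 and Pola1, whereas the promoters of Rrm2, Rrm1 and Uhrf1 held neither motif. TTTCCCGC alone was in 4 (9.76%, against 1.07% of all promoters) and TTTGGCGC in 7 (17.1%, against 0.514%). The CHR motif TTTGAA, which marks many genes of later cell cycle phases, was in 6 (14.6%, against 17.9%), CCAAT in 24 (58.5%, against 37.4%) and the core of the antioxidant response element bound by NRF2, TGACNNNGC, in 7 (17.1%, against 12.4%). Matches of different motifs did not overlap in any of the 41. A match describes the letters of the window and was not measured as binding.

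Genes of other cell cycle steps were listed for comparison. Of 12 mitosis genes, 8 were tested in wild-type mice, all 8 had log2 fold changes below 0 with a median of -1.35, and 4 fell, namely Ccna2 (-1.60, SE 0.21, adjusted p = 0.000935), Top2a (-1.99), Cdc20 (-2.59) and Mki67 (-1.87). Their summed level was 14.5 ± 4.77 CPM with vehicle and 5.34 ± 0.959 CPM with CDDO-Me (n = 5 each), without overlap. Of 18 tested genes among other origin and fork factors, only Recql4, a helicase that acts in origin firing, fell (log2 fold change -0.79, SE 0.20, adjusted p = 0.0442), and the median was -0.04. No gene was called among 16 other polymerase and clamp loader genes (median -0.07), 9 other nucleotide genes (0.01), 23 other G1/S control genes (0.04), 6 other histone chaperone genes (-0.02), 13 p53 targets (0.03) and 7 clock genes (-0.16).

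Markers of hepatocytes and of other cell types were read in the same wild-type livers. All 5 hepatocyte markers were estimated below 0 (median -0.22), and none was called. Their sum was 100820 ± 9240 CPM with vehicle and 86062 ± 10000 CPM with CDDO-Me (n = 5 each), with overlapping ranges. The summed level of the 6 lymphoid markers was 8.98 ± 1.85 CPM with vehicle and 8.30 ± 1.48 CPM with CDDO-Me (n = 5 each), with Ptprc the most abundant, and none was called. The 5 endothelial markers, led by Stab2, summed to 166 ± 14.4 CPM and 153 ± 7.72 CPM, and none of these or of the 6 Kupffer cell, 5 cholangiocyte and 5 stellate markers was called. The neutrophil markers were close to the detection limit, with a sum of 1.09 ± 0.25 CPM with vehicle and 2.27 ± 0.823 CPM with CDDO-Me, of which only S100a8 and S100a9 passed the filter and Elane, Ly6g and Mpo did not. S100a8 rose (log2 fold change 1.69, adjusted p = 0.0235). Of the 4 erythroid markers tested, 2 were above 0 and 2 below, with a median of -0.02. Only Alas2 was called, and it fell (log2 fold change -0.60, adjusted p = 0.0113). The erythroid sum was 254 ± 37.4 CPM with vehicle and 217 ± 71.9 CPM with CDDO-Me (n = 5 each). The part of these cells in the lower levels of Mcm5, Rrm2 and Mcm3 was not tested.

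**Figure D3:**
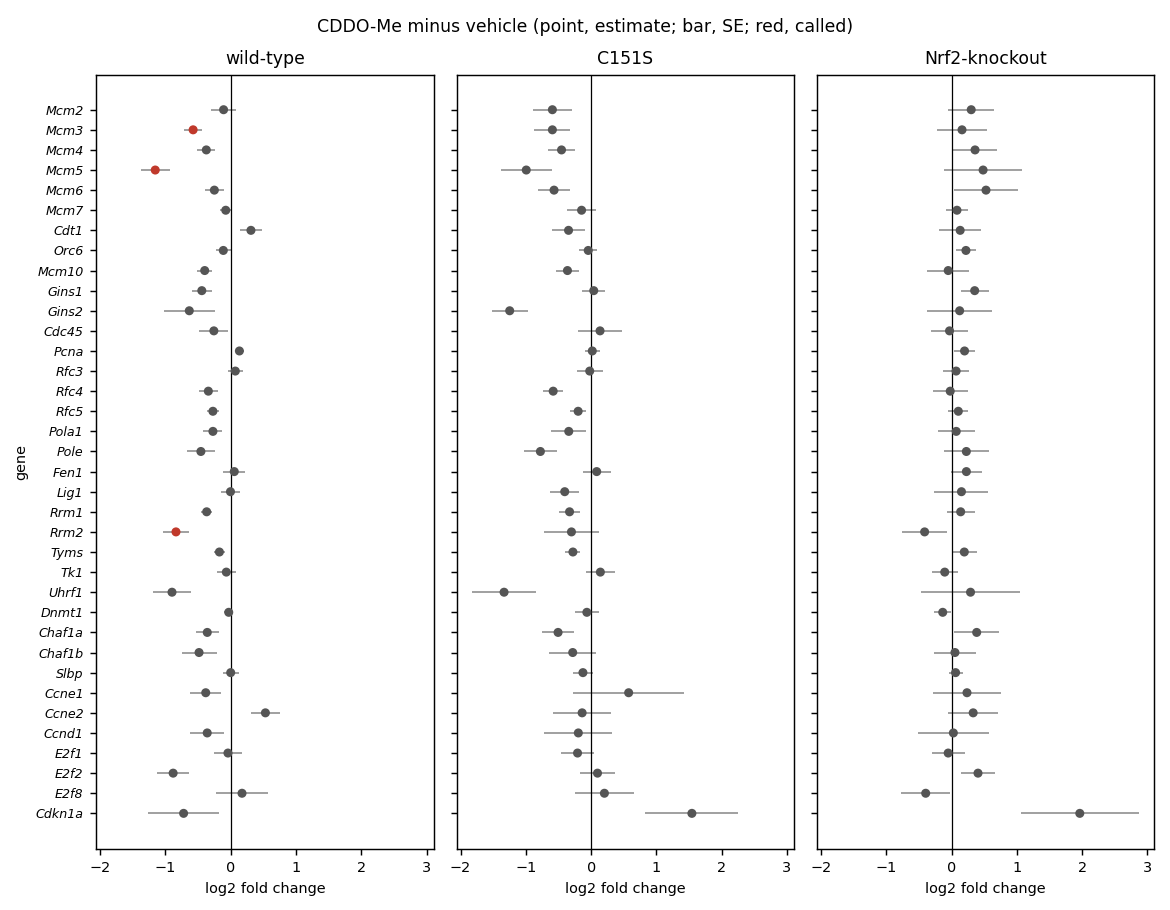
Log2 fold change (CDDO-Me minus vehicle) of the 36 tested genes, with a panel for each genotype (points, edgeR estimates; bars, SE; red, called; 5 mice per group). Only Mcm3, Mcm5 and Rrm2 in wild-type mice are red, and the estimates of the Nrf2-knockout mice lie mostly to the right of 0.

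In C151S mice, CDDO-Me called none of the 36 tested genes, and only 13 of all 14128 genes tested (0.0920%) passed. Below 0 lay 27 of the 36 estimates with a median of -0.24, and 8 were lower and none higher at an unadjusted p below 0.05, against 13.7% of all genes. All 8 licensing genes were below 0. Mcm5 was at 5.58, 3.88, 6.58, 1.47 and 4.11 CPM with vehicle and at 1.26, 3.52, 1.22, 2.49 and 2.37 CPM with CDDO-Me. These groups overlapped, since vehicle mouse 4 was among the lowest, and the log2 fold change of -0.99 (SE 0.39, adjusted p = 0.354) had a wider error than in wild-type mice. Rrm2 (-0.30, SE 0.43) and Mcm3 (-0.59, SE 0.28) did not pass either.

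The smallest adjusted p in C151S mice belonged to Gins2, a subunit of the GINS complex, at 1.04, 1.35, 1.71, 0.575 and 1.12 CPM with vehicle and 0.443, 0.569, 0.499, 0.425 and 0.512 CPM with CDDO-Me. Every treated mouse was below every vehicle-treated mouse, but the gene did not pass (log2 fold change -1.25, SE 0.28, adjusted p = 0.238). DESeq2 called it (adjusted p = 0.0211), as did edgeR without vehicle mouse 4 (log2 fold change -1.41, adjusted p = 0.0467). Of the 12 mitosis genes, 5 fell in C151S mice, among them Cdc20 (log2 fold change -2.89, adjusted p = 0.0323) and Ccnb2 (-1.61, adjusted p = 0.0323), and the median over the 12 was -1.99. None of the other origin, polymerase, nucleotide, G1/S, chaperone or p53 genes was called. All 6 lymphoid markers were estimated below 0 in the same mice (median -0.35, none called), with a sum of 13.3 ± 4.76 CPM with vehicle and 9.87 ± 4.03 CPM with CDDO-Me, and the erythroid sum was 250 ± 72.8 and 165 ± 57.9 CPM (n = 5 each, none of 4 tested called). Their part in these estimates was not tested.

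In Nrf2-knockout mice, edgeR called none of the 36 genes and none of all 14474 genes (0.00%), although 1136 genes (7.85%) had an unadjusted p below 0.05 and DESeq2 called 55 genes, none of them among the 36. Above 0 lay 28 of the 36 estimates, with a median of 0.15, and none had an unadjusted p below 0.05. This direction rested on CDDO-Me mouse 3. Without it, 11 estimates lay above 0 and 25 below, with a median of -0.13, and again none was called. Mcm5 was at 1.80, 5.95, 7.28, 5.58 and 2.25 CPM with vehicle and at 4.56, 2.29, 19.2, 2.44 and 3.98 CPM with CDDO-Me, the value of 19.2 being that of mouse 3. All 12 mitosis genes had estimates below 0 (median -0.95) and none was called. The 5 endothelial, 6 lymphoid and 5 cholangiocyte markers were all below 0 as well (medians -0.26, -0.31 and -0.39, none called). Of the 4 erythroid markers tested, 2 were above 0. With vehicle and CDDO-Me the endothelial sum was 238 ± 45.9 and 189 ± 47.2 CPM, and the lymphoid sum 13.2 ± 5.62 and 10.3 ± 4.68 CPM (n = 5 each). Their part in these estimates was not tested.

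Whether the response differed between genotypes was tested directly in a fit of all 30 libraries, in which 37 of the 38 genes were tested. The false discovery rate called none of them in any of the 3 differences. Of all 15010 genes, 72 (0.480%) differed between the wild-type and C151S responses, 40 (0.266%) between the wild-type and Nrf2-knockout responses and 2 (0.0133%) between the mutants' responses. E2f2 had the smallest adjusted p for wild-type against Nrf2-knockout mice (difference of log2 fold changes -1.29, SE 0.38, adjusted p = 0.271). The difference for Mcm5 was -1.65 (SE 0.69, adjusted p = 0.678). Unadjusted p was below 0.05 for 1 gene against C151S (8.31% of all genes), 6 against Nrf2-knockout (6.28%) and 9 between the mutants (4.92%), and DESeq2 called none. Without knockout CDDO-Me mouse 3, the difference was -0.68 for Mcm5 and -1.13 for E2f2 (adjusted p = 0.529), and the median over the 37 genes went from -0.38 to -0.02 for wild-type against knockout and from -0.34 to -0.14 for C151S against knockout mice. The calls of Mcm5, Rrm2 and Mcm3 in wild-type mice were therefore not shown to differ from the responses of either mutant.

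**Figure D4:**
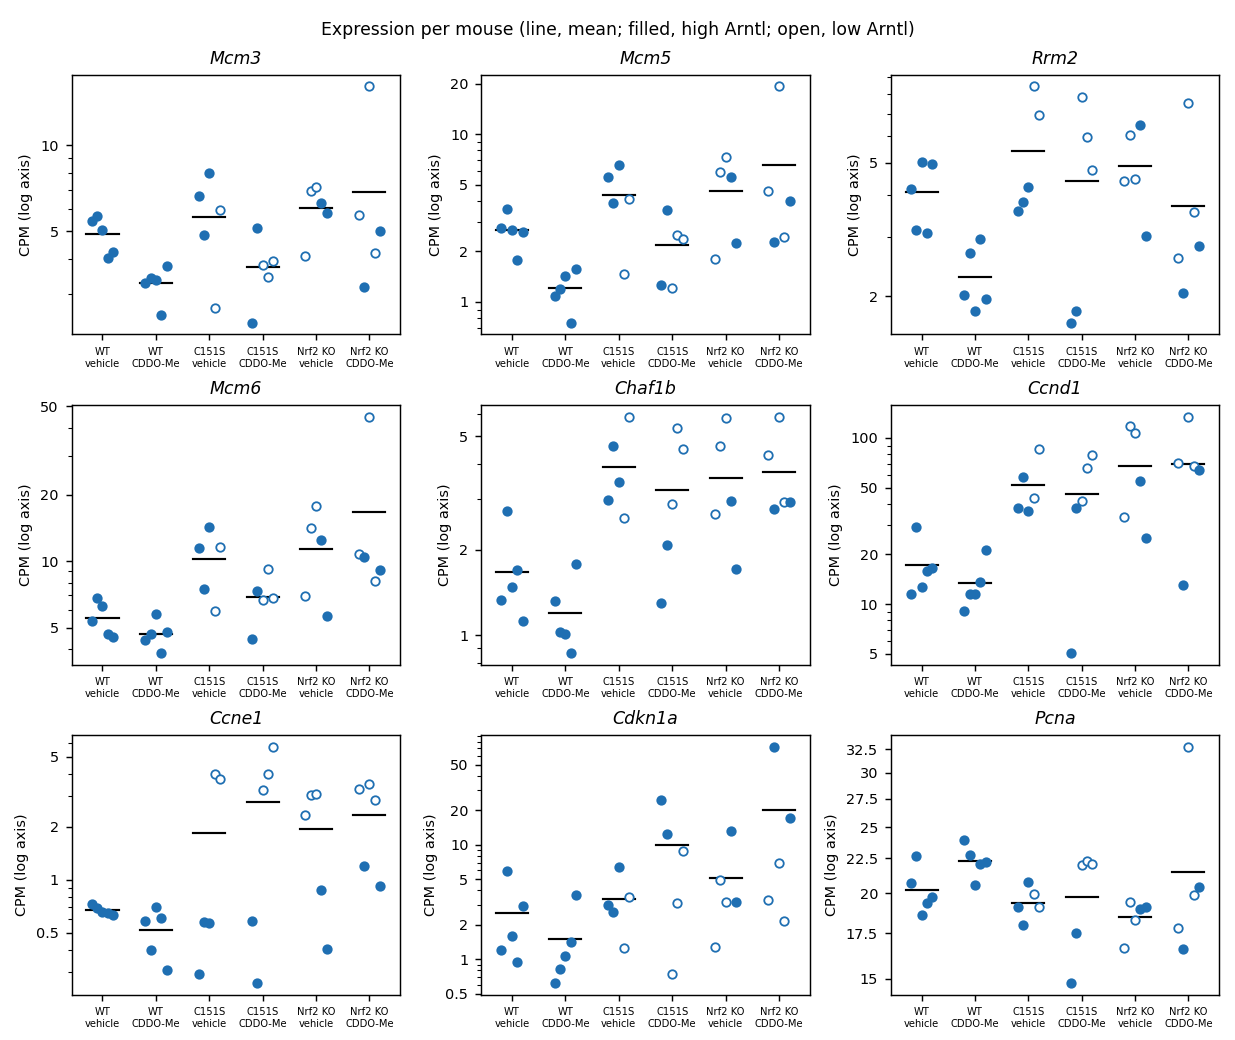
CPM of 9 genes in each of the 30 mice on log axes, by group (lines, means; filled points, high Arntl; open points, low Arntl). Mcm3, Mcm5 and Rrm2 separate the wild-type groups, Ccnd1 is higher in most mutant than wild-type mice, and Pcna stays near 20 CPM in most mice.

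Genotypes were compared next within each treatment. These comparisons share the wild-type groups with each other and with the treatment comparison above. In vehicle-treated C151S mice, Ccnd1, Chaf1b and Mcm6 were higher than in wild-type mice and no gene of the 36 was lower, against 4.84% of all 13946 genes called and 2.59% higher. Ccnd1 (ENSMUSG00000070348.5, mm10 chromosome 7, 144929931 to 144939925, minus strand), encoding the cyclin that starts the passage through G1, was at 11.4, 29.1, 12.6, 15.9 and 16.4 CPM in wild-type and at 37.6, 58.2, 36.4, 43.2 and 85.7 CPM in C151S mice. The groups did not overlap, and the gene was 3.07-fold higher (log2 fold change 1.62, SE 0.29, adjusted p = 0.00849). This call was kept in each of the 10 fits without 1 library and lost in the single fit of all 30 libraries (adjusted p = 0.0758).

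Chaf1b, a subunit of the chromatin assembly factor that places histones behind the fork, was at 1.33, 2.73, 1.47, 1.70 and 1.13 CPM in wild-type and at 2.99, 4.60, 3.45, 2.59 and 5.85 CPM in C151S mice given vehicle. Only the ends of the ranges overlapped, and the log2 fold change was 1.22 (SE 0.28, adjusted p = 0.0223). Mcm6 had 4.54 to 6.81 CPM in wild-type and 5.98 to 14.3 CPM in C151S mice, so that it was 1.84-fold higher (log2 0.88, SE 0.22, adjusted p = 0.0335). Mcm6 was also lost in the single fit of all 30 libraries (adjusted p = 0.177). Chaf1b was called in 5 of the 10 fits without 1 library and Mcm6 in 3. Chaf1b lost its call without wild-type mouse 1, 3, 4 or 5 or C151S mouse 2 (largest adjusted p = 0.060), and Mcm6 without wild-type mouse 1, 3, 4 or 5 or C151S mouse 1, 3 or 5 (largest adjusted p = 0.087). Without C151S mouse 4, which was low for most licensing genes, 8 genes were called, while the number over all genes went from 675 to 1168 (8.28% of those tested).

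In vehicle-treated Nrf2-knockout mice 4 genes were higher than in wild-type mice and none was lower, against 10.4% of all 14030 genes called and 6.29% higher. Ccnd1 was at 33.5, 118, 107, 55.1 and 24.9 CPM in the knockout mice, where mouse 5 fell within the wild-type range, and was 4.0-fold higher (log2 fold change 2.0, SE 0.43, adjusted p = 0.0108). Mcm6 (log2 fold change 1.05, SE 0.28, adjusted p = 0.0284) and Chaf1b (1.11, SE 0.34, adjusted p = 0.0431) were higher too. Ccne1 (ENSMUSG00000002068.16, mm10 chromosome 7, 38097984 to 38107534, minus strand), which encodes cyclin E1, was at 0.633 to 0.732 CPM in wild-type and at 2.33, 3.02, 3.06, 0.874 and 0.403 CPM in knockout mice. It was called (log2 fold change 1.55, SE 0.46, adjusted p = 0.0401), although mice 4 and 5 were near the wild-type level. Ccnd1 alone was called in all 10 fits without 1 library. Mcm6 and Chaf1b were each called in 4, both losing the call without wild-type mouse 1, 3, 4 or 5 or knockout mouse 2 or 3, and Ccne1 in 2, without knockout mouse 4 or 5 (largest adjusted p over the 3 genes, 0.109). In the single fit of all 30 libraries Mcm6 (adjusted p = 0.056) and Ccne1 (adjusted p = 0.135) lost their calls, and Ccne1 lost it with the replicate block too (adjusted p = 0.080). With the side of Arntl as a term all 4 calls were lost, as given below.

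With CDDO-Me, Nrf2-knockout mice had 9 genes higher and none lower than wild-type mice, against 9.44% of all 13935 genes called and 4.59% higher. At an unadjusted p below 0.05 there were 18 genes, all higher, against 28.8% of all genes. The 9 were Chaf1b (log2 fold change 1.64, SE 0.27, adjusted p = 0.00218), Ccne1 (2.17, SE 0.40), Ccnd1 (2.39, SE 0.46), Rrm1 (0.93, SE 0.20), E2f2 (1.07, SE 0.25), Mcm5 (2.43, SE 0.57, adjusted p = 0.0167), Mcm6 (1.83, SE 0.45), Cdkn1a (3.72, SE 0.93, adjusted p = 0.0221) and Gins1 (0.83, SE 0.22, adjusted p = 0.0281). The groups overlapped for Ccnd1 and Cdkn1a. Without knockout mouse 3, Gins1 lost its call, the other 8 kept theirs, and the median over the 36 genes went from 0.63 to 0.25. Mcm5 then stood at 1.47 (log2, adjusted p = 0.0101) and Mcm6 at 1.04 (adjusted p = 0.0015). DESeq2 gave no adjusted p for Mcm6 (log2 1.82), and E2f2 lost its call with mouse number as a replicate block (adjusted p = 0.0572). Mcm6 lost its call without wild-type mouse 1 or 4 (largest adjusted p = 0.0522), and Cdkn1a without wild-type mouse 1, 2, 3 or 4 (largest adjusted p = 0.0597), and the estimate of Cdkn1a was 2.29 without knockout mouse 2. Gins1 also lost its call without any single wild-type mouse (largest adjusted p = 0.0666). With the side of Arntl as a term, 7 of the 9 calls were lost, as given below, and in libraries with high Arntl only, a fit of 2 knockout and 5 wild-type mice, 4 were lost and Mcm5, Mcm6, Rrm1, Chaf1b and Cdkn1a kept theirs.

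Cdkn1a (ENSMUSG00000023067.14, mm10 chromosome 17, 29090976 to 29100727, plus strand) encodes p21, an inhibitor of cyclin-dependent kinases, and thus acts against the cyclins in the same set. It varied widely. CDDO-Me-treated wild-type mice had 0.621, 0.829, 1.08, 1.42 and 3.63 CPM, C151S mice 24.5, 12.5, 0.749, 3.09 and 8.84 CPM, and Nrf2-knockout mice 3.29, 72.1, 6.96, 2.16 and 17.1 CPM. The highest single value, 72.1 CPM, belonged to knockout mouse 2, which was low for Ccnd1 at 12.9 CPM. The libraries with the highest Cdkn1a, this one and C151S CDDO-Me mouse 1 at 24.5 CPM, also had the lowest hepatocyte sums of all 30, at 73526 and 64375 CPM against a median of 105968. C151S CDDO-Me mouse 1 had the highest neutrophil sum as well, at 14.8 CPM against a median of 1.89. The part of these markers in the level of Cdkn1a was not tested. Within C151S mice the response of Cdkn1a was 1.54 (log2, SE 0.71, adjusted p = 0.366) and within knockout mice 1.96 (SE 0.91, adjusted p = 0.638), and neither passed.

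With CDDO-Me, C151S mice had only Chaf1b called higher than wild-type (log2 fold change 1.43, SE 0.36, adjusted p = 0.0383), where 2.20% of all 13844 genes were called higher. It was called in 3 of the 10 fits without 1 library, and lost without wild-type mouse 1, 2, 3 or 4 or C151S mouse 3, 4 or 5 (largest adjusted p = 0.10). The call of Chaf1b was also lost with mouse number as a replicate block, with the side of Arntl as a term and in high-Arntl libraries only. Over all alternatives its log2 fold change was as low as 0.49. Cdkn1a (2.7, adjusted p = 0.0576), Ccne1 (2.41, adjusted p = 0.0596) and Ccnd1 (1.79, adjusted p = 0.0613) fell just short. Without C151S CDDO-Me mouse 1, whose Ccnd1 was 5.08 CPM, 6 genes were called, with Ccnd1 (log2 2.07) and Ccne1 (2.66) among them, while the number over all genes went from 692 to 1303 (9.28% of those tested). Between the mutants no gene of the 36 was called with vehicle (0.349% of all genes) or with CDDO-Me (0.162%), where the smallest adjusted p was 0.339 for E2f8 and 0.349 for Mcm2.

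The other lists moved as follows in the genotype comparisons. The mitosis genes had medians of 0.81 in vehicle-treated C151S mice (Ccnb2 and Birc5 higher) and 0.90 in vehicle-treated Nrf2-knockout mice (none called) against wild-type, and 3 of 7 tested, Ccna2, Mki67 and Top2a, were higher in CDDO-Me-treated knockout mice. Timeless, a fork protection factor, was higher in both mutants with vehicle (log2 fold change 0.64 in C151S and 0.90 in knockout mice) and with CDDO-Me (1.14 and 1.57). Cad, the enzyme that begins pyrimidine synthesis, was lower in both mutants with vehicle (-1.34 and -0.96) and in knockout mice with CDDO-Me (-0.75). Recql4 was higher in CDDO-Me-treated knockout mice (1.11). Of the polymerase genes, Prim1, the primase subunit, and Pold3 were higher in these mice (1.51 and 0.52), and Pold2 was lower in C151S mice under vehicle (-0.52) and in both mutants under CDDO-Me (-0.76 in C151S and -0.68 in knockout mice). The other G1/S control genes moved in both directions. Mybl2, a partner of the complex that drives late cell cycle genes, was higher in knockout mice with vehicle (0.83) and in both mutants with CDDO-Me (1.88 in C151S and 2.02 in knockout mice). Under vehicle, Ccnd2 was higher in C151S mice (0.73), and in knockout mice Cdkn2c, an inhibitor of the cyclin D kinases, was higher (0.77) and Tfdp1, the E2F partner, lower (-0.55). Under CDDO-Me, E2f7, a repressor of the E2F family, was higher in C151S mice (1.43), where Myc (-1.78) and E2f3 (-0.61) were lower, and E2f3 (-0.58), Tfdp1 (-0.52) and Cdk6 (-0.51) were lower in knockout mice. Of 14 p53 targets, Eda2r was higher in knockout mice given vehicle (1.60) or CDDO-Me (2.42), and Trp53inp1 (-1.17, vehicle) and Bbc3 (-0.98, CDDO-Me) were lower, the last also in C151S mice given CDDO-Me (-1.30).

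Markers of non-hepatocyte cells also differed by genotype. In vehicle-treated mice wild-type livers had an endothelial sum of 166 ± 14.4 CPM, which compares with 210 ± 43.9 CPM for C151S and 238 ± 45.9 CPM for Nrf2-knockout livers (n = 5 each), and all knockout mice were above all wild-type mice. Pecam1 (log2 fold change 0.69) and Stab2 (0.78) were called of the 5. The lymphoid sum was 8.98 ± 1.85, 13.3 ± 4.76 and 13.2 ± 5.62 CPM in the same order, with none of 6 markers called, and the stellate markers Col1a1 (1.34) and Des (0.56) and the neutrophil markers S100a8 and S100a9 were higher in knockout mice. Of the 4 erythroid markers tested there, Hbb-bs (-0.80) and Hba-a1 (-0.52) were lower, with a sum of 173 CPM against 254 CPM in wild-type mice. The 5 cholangiocyte markers were all estimated below 0 in C151S mice given vehicle, with a sum of 23.2 CPM against 38.8 CPM, and the most abundant, Spp1, was lower (-0.83). Under CDDO-Me, Marco was the only 1 of the 6 Kupffer cell markers called, lower in C151S (-1.13) and in knockout mice (-2.14). Of the 6 estimates, 4 lay above 0 in C151S mice (median 0.14) and 3 in knockout mice (median 0.02). Pecam1 was higher in knockout mice given CDDO-Me (0.57). The part of these cells in the genotype differences of the 38 genes was not tested.

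Arntl moved with several of these genes. Among the 20 mutant libraries, Ccne1 was at 2.33 to 5.69 CPM in the 11 with low Arntl and at 0.259 to 1.19 CPM in the 9 with high Arntl, and was the only one of the 38 genes whose values did not overlap between the sides, as was the case for 0.813% of the 15010 genes tested in the fit of all libraries. In each of the 4 mutant groups, 12 genes had a higher mean log2 CPM on the low side, namely Mcm10, Rrm2, Tyms, Tk1, Cdc45, Orc1, Ccne1, Ccnd1, E2f1, E2f2, Fen1 and Chaf1b. Without Orc1, which was not among the genes tested, these were 11 of 37, against 16.8% of all genes tested. Dnmt1 and Cdkn1a had a lower one in all 4 groups, against 16.3% of all genes, with a median Cdkn1a level of 3.16 CPM on the low and 12.5 CPM on the high side. These values describe the libraries, which the study did not group in this way, and were not tested.

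The genotype calls changed when the side of Arntl was added to the fit. The difference in Ccne1 between vehicle-treated knockout and wild-type mice went from 1.55 to -0.06 on the log2 scale (adjusted p = 0.924), and no gene of the 36 was then called higher (Ccnd1 1.24, adjusted p = 0.117, Mcm6 0.72, adjusted p = 0.214, and Chaf1b 0.49, adjusted p = 0.433). Mcm10 was called lower in vehicle-treated knockout mice instead (log2 fold change -0.89, adjusted p = 0.0046). Over all genes, the number called in this comparison went from 1462 to 954. In C151S mice 6 genes were called higher with vehicle, where 3 had been without the term, namely Ccnd1 (1.38), Chaf1b (1.14), Mcm6 (1.01), Mcm5 (1.01), Pola1 (0.64) and Rrm1 (0.54), while the number over all genes went from 675 to 1904. With CDDO-Me, knockout mice kept the calls of Cdkn1a (4.85, adjusted p = 0.00104) and Chaf1b (1.26, adjusted p = 0.0276) and lost those of Ccnd1 (1.55, adjusted p = 0.0699), Ccne1 (1.03, adjusted p = 0.0592), Mcm5 (1.39, adjusted p = 0.19), Mcm6 (1.06, adjusted p = 0.208), Rrm1 (0.68, adjusted p = 0.0972), E2f2 (0.68, adjusted p = 0.161) and Gins1 (0.67, adjusted p = 0.166), while Mcm10 was called lower (-0.89, adjusted p = 0.0185). Over all genes, the number called for knockout mice with CDDO-Me went from 1315 to 1152. In CDDO-Me-treated C151S mice, Chaf1b lost its call (0.51, adjusted p = 0.45) and Cdkn1a was called (3.6, adjusted p = 0.0236). There the number over all genes went from 692 to 383. Because no wild-type library had low Arntl, the term was estimated from the mutant mice alone. The time of day at which each liver was taken is not given in the sources used here. The wild-type treatment comparison held libraries of the high side only.

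**Figure D5:**
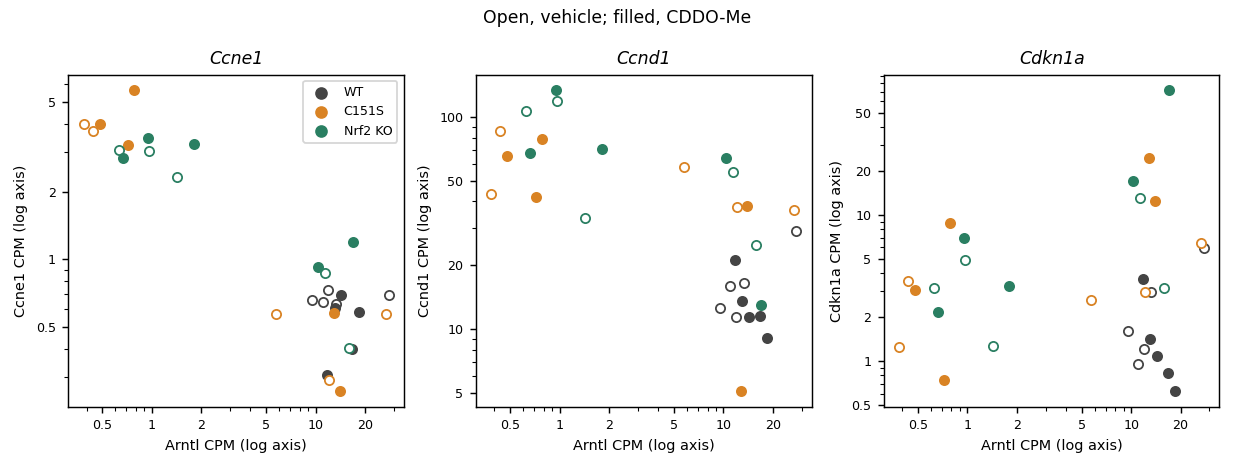
CPM of Ccne1, Ccnd1 and Cdkn1a against CPM of Arntl in the 30 livers, on log axes (colour, genotype; open, vehicle; filled, CDDO-Me). Mutant livers with Arntl of at most 1.80 CPM have Ccne1 of at least 2.33 CPM, and all other livers have at most 1.19 CPM.

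The genes also differed in how far they moved together from mouse to mouse. After removing group means, each gene was set against the mean of the other 37 over the 30 libraries, which share depth and library scaling. Spearman's rho was highest for Mcm6 (0.85), Uhrf1 (0.82), Rrm1 (0.80), Mcm3 (0.79) and Mcm5 (0.76), and lowest for Cdkn1a (-0.04) and E2f8 (-0.28), the latter a repressor of the E2F family. By role, the median rho was 0.66 for chromatin, 0.65 for licensing, 0.62 for nucleotide, 0.52 for synthesis and 0.38 for firing genes and 0.30 for regulators. Rrm2, one of the 3 genes that fell in wild-type mice, had a rho of 0.32. Leaving out Nrf2-knockout CDDO-Me mouse 3 changed Pearson's r of Mcm6 from 0.90 to 0.82 and that of Gins1 from 0.37 to -0.02. In the mean over all 38 genes, wild-type CDDO-Me mice were the tightest group at 1.52 ± 0.03 log2 CPM (SD, n = 5), against 1.79 ± 0.10 for wild-type vehicle mice.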

How the data were processed

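The authors deposited 1 table of raw counts per gene, not normalized. Per the labels and methods, stranded poly-A libraries were read as paired 50-base reads, quality-checked with fastp, aligned to mm10 with STAR 2.7.7 and counted per gene on the second strand with GENCODE release 23. Symbols came from GENCODE release 21, and 55154 of 55335 genes had one. The 4 summary rows of STAR were left out of all sums, so that 65.9% to 80.6% of reads were counted on genes. Genes passing filterByExpr were TMM-scaled and tested with edgeR 4.0.16 (R 4.3.3) quasi-likelihood F-tests, 2 groups at a time, and response differences in 1 fit of 30 libraries. Adjusted p-values are Benjamini-Hochberg over all genes tested, two-sided. SE was taken as the estimate over the root of its F statistic. A call needed a false discovery rate below 0.05 and a log2 change of 0.5 or more in size (false discovery rate alone for response differences). CPM values are TMM-scaled, and log2 CPM used a prior count of 2. The scripts were tested on simulated counts. Alternatives were DESeq2 1.42.0, RLE scaling, no filter, a joint fit, a replicate block, Arntl side and leaving out each mouse. The genes, the comparison lists and the rules were chosen with earlier results of these data known. Genes the text names are those called, the top gene of each role, and examples of each list. The study's own fit used isolation date as a covariate, which is not given in the sources used here.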

Additional observations from a re-analysis of the deposited data

Results flagged for a closer look

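In 12 of 216 groups of 5 mice (5.56%), 1 mouse lay apart from the other 4 by Dixon's test on log2 CPM. Chance alone gives about 1 in 20. Nrf2-knockout CDDO-Me mouse 3 accounted for 4 of them, with Mcm2 at 13.3 CPM (next highest 5.04), Mcm6 at 45.0 (10.8), Rrm1 at 26.5 (14.1) and Pole, the catalytic subunit of polymerase epsilon, at 9.887 (3.55). C151S CDDO-Me mouse 1 was low for Ccnd1 at 5.08 CPM (next lowest 38) and for Slbp, the histone mRNA binding protein, at 7.16 (10.9). Nrf2-knockout vehicle mouse 5 was high for E2f8 at 14.81 CPM (5.34) and Rfc3 at 7.052 (4.33), and vehicle mouse 1 was low for Rfc4 at 2.251 (3.26) and for the DNA ligase gene Lig1 at 2.039 (4.36). Fen1, the flap endonuclease, was high in C151S CDDO-Me mouse 5 at 5.984 CPM (3.56), and Mcm7 was low in wild-type CDDO-Me mouse 1 at 12.61 CPM (13.2).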

How the results depend on the processing

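Of the 20 gene-level calls named above, 20 were kept with RLE scaling, without the low-count filter and with the false discovery rate alone, all 19 that had an adjusted p with DESeq2 (Mcm6 in CDDO-Me-treated knockout mice had none), 15 with the replicate block, 13 in 1 fit of all 30 libraries and 136 of 200 when each mouse was left out in turn. Of the 17 calls against wild-type, 5 were kept, 11 lost and 1 lost with a change of sign when Arntl side was a term. In high-Arntl libraries only, 8 were kept, 8 lost and 1 lost with a change of sign. With 1 fit of all 30 libraries, the number of genes called went from 3 to 0 in the wild-type treatment comparison, from 3 to 1 (C151S) and 4 to 2 (knockout) against wild-type with vehicle, and from 1 to 4 and 9 to 16 with CDDO-Me. Over all genes it went from 377 to 147, 675 to 382, 1462 to 1492, 692 to 1001 and 1315 to 1562 in the same order. DESeq2 gave 4 in place of 3 for wild-type treatment and 1 in place of 0 for C151S treatment. Against wild-type it gave 4 in place of 3 and 5 in place of 4 with vehicle, and 5 in place of 1 and 14 in place of 9 with CDDO-Me. Over all genes DESeq2 called 527, 100, 1006, 1821, 1154 and 1654 in the same order, against 377, 13, 675, 1462, 692 and 1315. With CDDO-Me, C151S against wild-type gave 2 with the false discovery rate alone, 4 without the filter and 0 with the replicate block. Over all genes these gave 938, 825 and 827, against 692. Arntl side as a term gave 6 in place of 3 and 1 in place of 4 against wild-type with vehicle, 1 in place of 0 between the mutants with vehicle and 3 in place of 9 for knockout against wild-type with CDDO-Me. Over all genes these fits gave 1904 in place of 675, 954 in place of 1462, 89 in place of 50 and 1152 in place of 1315. Using only libraries with high Arntl (3 mice in vehicle-treated C151S and 2 in each other mutant group), an alternative chosen after seeing the data, gave 7 (C151S) and 1 (knockout) against wild-type with vehicle, and 1 and 6 with CDDO-Me. Over all genes these fits called 2030, 1168, 294 and 1087 in the same order. The 1 in vehicle-treated knockout mice was Mcm10, called lower (-0.89, adjusted p = 0.00942). With CDDO-Me, the 1 in C151S mice was Cdkn1a, called higher. The 6 in knockout mice were 5 higher and Mcm10 lower (-0.90, adjusted p = 0.0222). The estimate of Ccne1 in vehicle-treated knockout mice changed sign to -0.05841 with the term and to -0.05555 in high-Arntl libraries only (adjusted p = 0.937). Ccne1 was called in neither fit. Mcm5 in wild-type treatment was lost only in the joint fit (adjusted p = 0.43). The causes of these changes were not tested. The numbers of calls kept or lost, given first, have no number over all genes beside them. They do not compare the genes described here with other genes.

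Leaving out 1 mouse gave 1 to 3 genes called in wild-type treatment, 0 to 1 in C151S treatment, 1 to 8 for C151S and 1 to 8 for knockout against wild-type with vehicle, 0 to 6 and 6 to 14 with CDDO-Me, and 0 in the other comparisons. Over all genes the numbers moved as well, with 265 to 493, 0 to 22, 390 to 1168, 949 to 2050, 379 to 1303 and 975 to 1487 called in the same order. The lowest number of the 38 came without wild-type mouse 1 or 3 of either treatment in wild-type treatment, without wild-type mouse 1, 3, 4 or 5 (or knockout mouse 2 or 3) with vehicle, without wild-type mouse 1 to 4 or C151S mouse 4 or 5 for C151S with CDDO-Me, and without wild-type mouse 1 or 4 for knockout with CDDO-Me. The high ends came without C151S vehicle mouse 4, knockout vehicle mouse 1, C151S CDDO-Me mouse 1 and knockout CDDO-Me mouse 2. The labels number the mice of each group, but in none of the 9 comparisons was every same-numbered pair's residual correlation over 0.1, so they were not taken as pairs. It ranged from -0.09 to 0.17 in wild-type treatment and from -0.06 to 0.51 in knockout treatment, where the mean was 0.19 against -0.05 for other pairs and 3 of 5 mice correlated best with their own number. For C151S against wild-type with CDDO-Me the mean was 0.16 against -0.04. The replicate block gave 2 genes in place of 3 in wild-type treatment, Mcm5 and E2f2 (-0.87, adjusted p = 0.0468), so that Mcm3 and Rrm2 were lost. Over all genes it called 299 in place of 377. Genes at a few counts, such as Orc1 and Cdc6, were beyond the depth.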

Other observations

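Mcm10 was far more abundant per length than the other helicase and firing genes in vehicle-treated wild-type liver. Its neighbour Optn, which encodes the autophagy receptor optineurin, lies 7850 bases upstream on the same strand and was looked at after the values of Mcm10 were seen. Optn was at 93.0 ± 11.9 CPM in vehicle-treated and 99.0 ± 9.1 CPM in CDDO-Me-treated wild-type mice (SD, n = 5 each), and Mcm10 was at 89.3 ± 10.7 and 68.1 ± 11.6 CPM. Whether reads of 1 gene were counted on the other was not tested.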
